A study of Mus musculus with 20 samples.

Results

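The genes described here are those named Ccdc, for coiled-coil domain containing, or Cfap, for cilia and flagella associated protein, each followed by a number. They were found by name alone, among the genes to which the array annotation gives a single symbol, and 144 of 18193 such genes carried one of these names (119 Ccdc and 25 Cfap). Where several probe sets measured a gene, the one with the highest mean over the 20 arrays stood for it. Testing covered probe sets with a log2 signal of at least 5 in at least 2 arrays. This left 127 of the 144 genes, and the other 17 stayed near the background.

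The study sorted living germ cells of the adult mouse testis by Hoechst fluorescence, which reads DNA content and chromatin condensation, and measured their RNA on Affymetrix MOE430 version 2 arrays. All arrays came from F1 males of C57BL/6 and DBA/2J, 10 to 16 weeks old by the sample labels, with no treatment and no mutation. There were 4 arrays of spermatogonia (Sp), 3 of pre-leptotene cells (pL), 3 of leptotene/zygotene cells (L/Z), 1 of early-pachytene cells (eP), 2 of mid-pachytene cells (mP), 1 of late-pachytene cells (lP), 2 of diplotene cells (D) and 4 of round spermatids (RS). Each RNA was a pool of several sorts, so the spread between arrays is a spread between pools and not between mice. Because a sorted fraction is a population, fewer cells carrying an RNA and less RNA per cell cannot be told apart.

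Coiled coils are paired helices that act as struts, rulers and scaffolds, and the Ccdc name says only that a protein holds such a stretch. Many Cfap and some Ccdc proteins are parts of the axoneme, the microtubule shaft of cilia and of the sperm tail, where they dock dynein arms, set their spacing, or line the inside of the doublet microtubules. The sperm tail is built in spermatids after meiosis, and RNA for its parts is known to appear earlier, in spermatocytes. Other Ccdc proteins work at centrosomes, in membrane traffic, in mitochondria or in splicing.

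The fractions were checked against marker genes of the cells the sort could hold. Signal summed over 21 spermatid markers was 141097 to 205523 in the round spermatids and 30873 to 56807 in pre-leptotene cells, yet it reached 62032 to 311728 in the spermatogonia. Summed leukocyte markers were also highest in the spermatogonia, at 1576 to 6557, against 93.1 to 151 in the round spermatids. Of 9 Sertoli markers, Sox9, Amh, Gata4, Dhh and Rhox5 lay under a log2 signal of 5 in every fraction mean. Clu, Aard and Cst12 were well above it throughout, and means of Wt1 lay between 4.11 and 5.84. Of 7 measured Leydig and peritubular markers, Acta2 and Tagln were above 5 in every fraction mean, and Cyp11a1 and Hsd3b1 under it. Star, Cyp17a1 and Myh11 lay on both sides of 5. The markers of spermatogonia and early meiosis summed to 22426 to 34878 in the spermatogonia and to 137 to 1066 in the round spermatids. The median signal of an array was 11.1 to 12.7. The part of spermatid RNA in levels measured in the spermatogonia was not tested.

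Most Ccdc and Cfap genes stood higher from mid-pachynema on than before pachynema. The comparison set the mean of the mid-pachytene, late-pachytene, diplotene and round spermatid fractions against the mean of the spermatogonia, pre-leptotene and leptotene/zygotene fractions, in 1 limma fit over all arrays with adjustment over 22396 probe sets. Of the 127 tested genes 91 were higher late (71.7%), against 34% of all tested probe sets. Another 20 were lower late (15.7%), against 43.3% of all tested probe sets, and 16 passed in neither direction. With 1 probe set a gene, 37.3% of 11952 genes were higher and 43.6% lower. Among the 91 higher members, 13 had every early array under a log2 signal of 5 and passed the filter only through later arrays. The pre-leptotene mean was under 5 for 37 of the 91. The median difference was 1.62 on the log2 scale over the tested members and -0.25 over all tested probe sets. Every late array lay above every early array for 56 of the 127 tested genes, all among the 91 higher, against 13.2% of all tested probe sets. Every late array lay below every early array for only 7 of the 127 tested genes, all among the 20 lower, against 18.9% of all tested probe sets. The arrays carry project names, and 4 projects hold both early and late arrays. Within these projects 92, 98, 98 and 96 of the 127 tested members had a positive difference, beside 10227, 10337, 10098 and 9952 of the 22396 probe sets.

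Averaged over the 91 higher genes, the log2 signal was 6.30 ± 0.34 in spermatogonia (SD over arrays, n = 4), 5.70 ± 0.35 in pre-leptotene cells (n = 3) and 6.95 ± 0.59 in leptotene/zygotene cells (n = 3). It was 8.24 on the early-pachytene array, 8.68 ± 0.17 in mid-pachytene cells (n = 2), 9.32 on the late-pachytene array, 9.62 ± 0.05 in diplotene cells (n = 2) and 9.95 ± 0.09 in round spermatids (n = 4). The 20 lower genes averaged between 7.47 and 7.60 in the 3 fractions before pachynema and 5.66 in round spermatids. Since the late against early difference chose these 91 and these 20 genes, their means are a description. A set of 45 tested axonemal reference genes outside the Ccdc and Cfap names (dynein heavy chains, radial spoke, central pair and tektin genes and the like) averaged 5.32 in pre-leptotene cells and 11.0 in round spermatids. Of these reference genes 43 were higher late and 1 was lower.

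**Figure D1:**
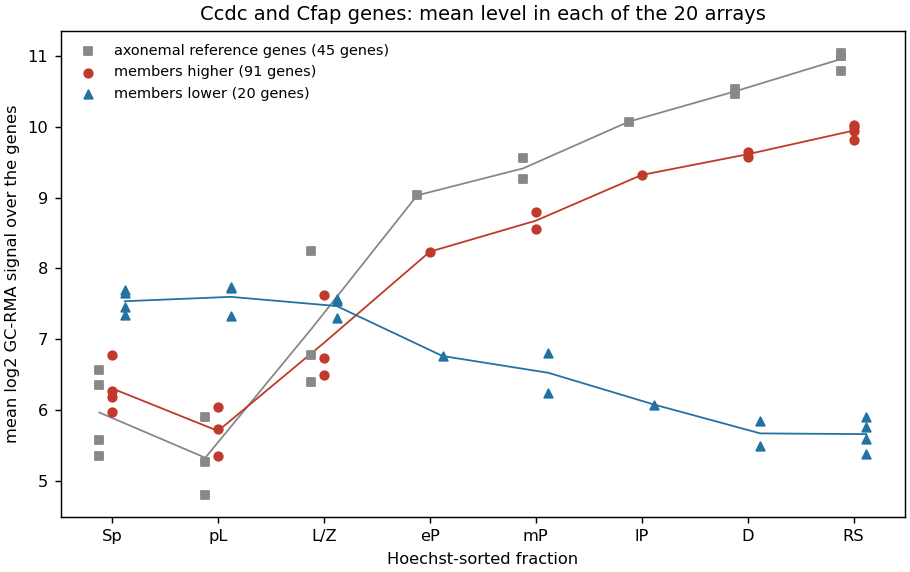
Mean log2 GC-RMA signal over the genes of each set (vertical axis) on each of the 20 arrays, by sorted fraction (horizontal axis, Sp spermatogonia to RS round spermatids). Points are arrays and lines join fraction means. The 91 higher members climb from 5.70 in pre-leptotene cells to 9.95 in round spermatids beside the 45 axonemal reference genes, and the 20 lower members go from 7.60 to 5.66.

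By profile, 63 of the 127 tested genes (49.6%) were higher late and had a Pearson r of at least 0.8 with the mean profile of the axonemal reference genes over the 8 fraction means. With r set at 0.7 and at 0.9 the number was 70 and 56, and with spermatogonia left out of the profile it was 61. These r values describe 8 fraction means that share arrays, and no test was made on them. Their median over the 91 higher genes was 0.96. With 1 probe set a gene, 37.3% of all genes were higher late, but how many of those reach such an r was not computed. The 49.6% therefore has no share over all genes beside it and cannot be read as particular to these names. Among the 91 higher genes the fraction of highest mean was round spermatids for 56, late-pachytene for 21, diplotene for 13 and mid-pachytene for 1, Ccdc47. The share of genes high before pachynema was the 15.7% given above.

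**Figure D2:**
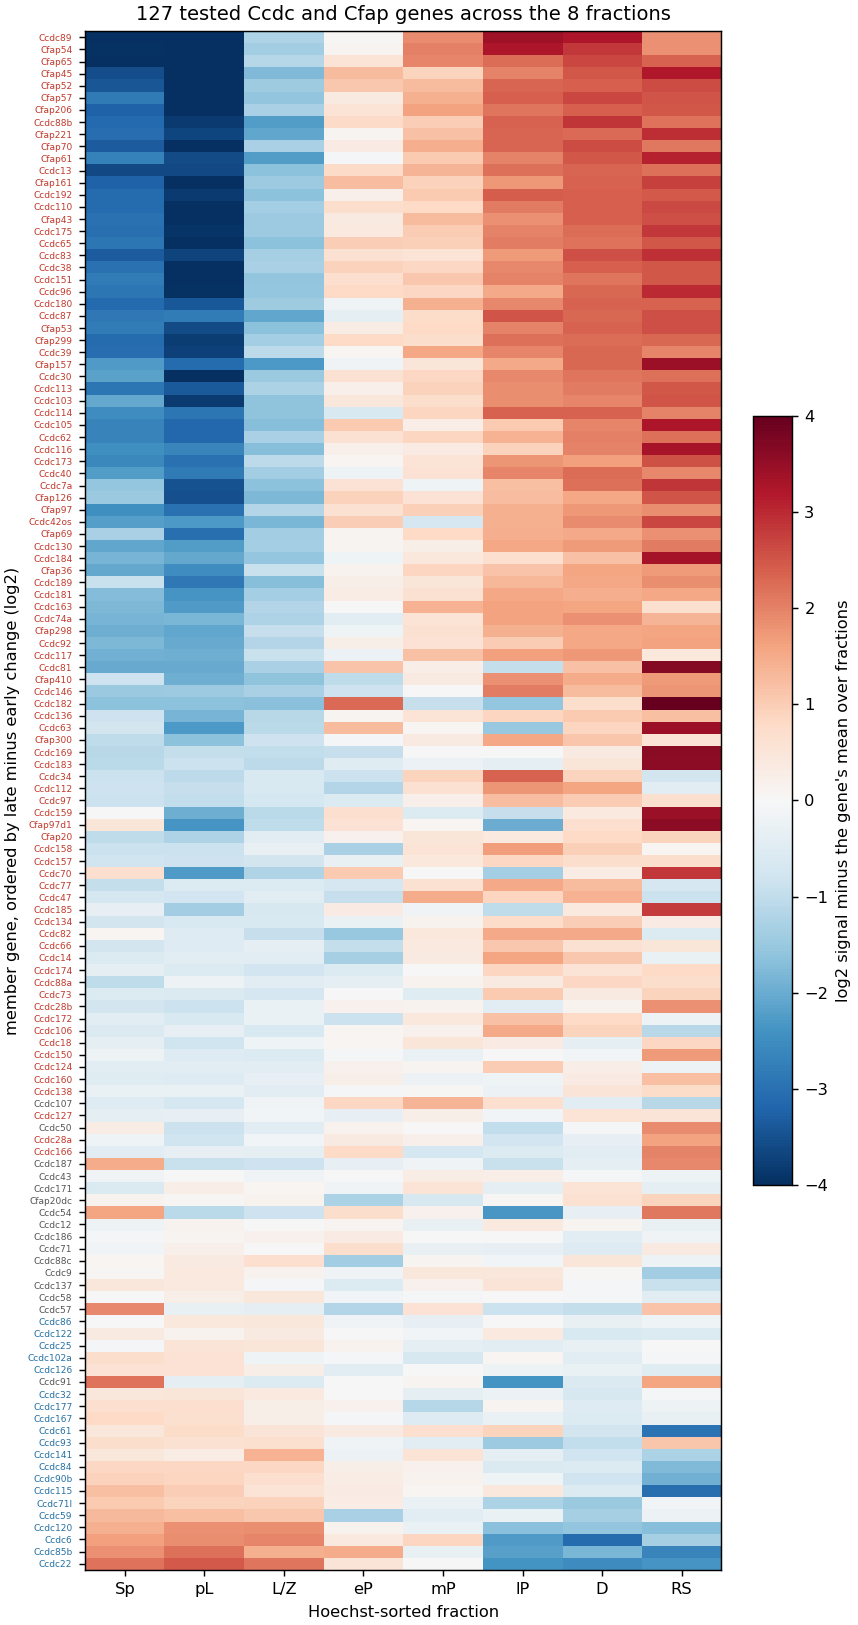
Log2 signal of each of the 127 tested genes in the 8 fractions, as the difference of each fraction mean from the gene's own mean over fractions (colour, in log2 units), ordered by late minus early difference with the probe sets used here (top, Ccdc89, 6.04, to bottom, Ccdc22, -4.07). Red names are higher late, blue names lower, grey names passed in neither direction. The colour scale ends at -4 and 4.

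Most genes listed under axoneme and flagellum were higher late. All 24 tested Cfap genes except Cfap20dc were higher late, 23 in number (95.8%), against 34% of all tested probe sets. Their median difference was 4.61 on the log2 scale. No Cfap gene was lower by limma, at the adjusted threshold or at an unadjusted p of 0.05 (0 genes each). At the adjusted threshold 43.3% of all tested probe sets were lower. With the axonemal Ccdc genes added, 38 of 39 were higher, with a median of 4.34, beside 4.39 over the axonemal reference genes. Every Cfap gene entered the axoneme and flagellum list by its name alone, and the lists were written with earlier results of these data known. For Cfap20dc the difference was 0.11 ± 0.26 (SE, limma adjusted p = 0.714). Its mean log2 signal was 5.88 in spermatogonia and 6.62 in round spermatids.

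Cfap54, a part of the central pair apparatus, had a log2 signal of 3.35, 3.81, 3.55 and 4.61 in the 4 spermatogonia arrays, 2.29, 3.55 and 3.53 in pre-leptotene and 5.92, 6.17 and 7.11 in leptotene/zygotene cells. It stood at 7.89 in early-pachytene, 9.94 and 9.63 in mid-pachytene, 11.0 in late-pachytene, 10.95 and 10.27 in diplotene cells, and 9.79, 9.53, 9.42 and 9.72 in round spermatids. Early and late arrays did not overlap. The difference was 5.80 ± 0.24 (SE, limma adjusted p = 3.93e-11), with spermatogonia and pre-leptotene signals under 5, where GC-RMA values are close to background.

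Cfap206, which links radial spokes to the doublets, started from a measurable level. Its log2 signal was 6.91, 8.16, 6.63 and 8.38 in spermatogonia, 4.62, 7.18 and 6.63 in pre-leptotene and 8.39, 9.04 and 10.96 in leptotene/zygotene cells. It was 11.30 in early-pachytene, 12.25 and 12.49 in mid-pachytene, 12.89 in late-pachytene, 13.16 and 13.14 in diplotene cells and 13.14, 12.98, 13.32 and 13.48 in round spermatids. Its difference was 5.2 ± 0.40 (limma adjusted p = 7.27e-09), and the lowest late array stood above the highest early one. Cfap65, needed for the sperm tail, rose by 5.56 ± 0.35 (limma adjusted p = 9.49e-10). Cfap57, an inner dynein arm factor, rose by 5.36 ± 0.38 and Cfap70, of the outer dynein arm, by 5.08 ± 0.36. The proteins of Cfap45 and Cfap52, which lie inside the doublet microtubules, had RNA differences of 5.40 ± 0.39 and 5.37 ± 0.34. Cfap221 and Cfap61, of the central pair and of the radial spoke base, differed by 5.11 ± 0.29 and 5.0 ± 0.30.

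The axonemal Ccdc genes gave like values. Ccdc39 and Ccdc40, whose proteins form the ruler that sets the axonemal repeat, rose by 4.55 ± 0.32 and 3.83 ± 0.28. The nexin-dynein regulatory gene Ccdc65 rose by 4.80 ± 0.38, and the dynein-docking genes Ccdc151 and Ccdc114 by 4.71 ± 0.41 and 4.21 ± 0.21. Ccdc63, another dynein-docking gene, differed in its course. Its fraction means were 9.11 in early-pachytene, 6.35 in late-pachytene and 11.3 in round spermatids, its late rise was 2.08 ± 0.31 (limma adjusted p = 1.36e-05), and it rose again by 2.58 ± 0.54 from diplotene cells to round spermatids (limma adjusted p = 0.00274). Cfap20, present in cilia of most kinds, had a mean log2 signal of 10.1 or higher in each fraction and rose by 1.55 ± 0.31.

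**Figure D3:**
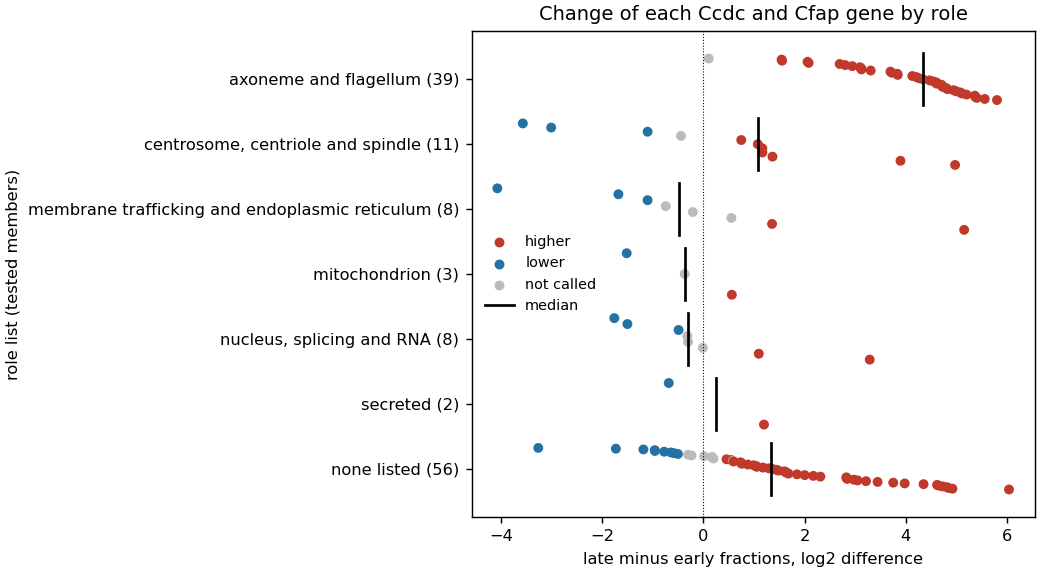
Late minus early log2 difference (horizontal axis) of each of the 127 tested genes, by role (vertical axis, number of tested genes in brackets). Points are genes, red higher, blue lower, grey passed in neither direction, and black bars are medians. In the axoneme and flagellum row, which takes in every tested Cfap gene by name, 38 of 39 points are red with a median of 4.34. Every other role except the secreted row has red, blue and grey points.

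The other roles held genes of both directions. Of 11 tested centrosome, centriole and spindle genes 7 were higher and 3 lower, of 8 in membrane traffic and the endoplasmic reticulum 2 were higher and 3 lower, and of 8 in the nucleus, splicing and RNA 2 were higher and 3 lower. The last 2 groups are small and their shares, 25% higher and 37.5% lower in each, lay near the 34% and 43.3% of all tested probe sets. Of 3 mitochondrial genes and of 2 secreted ones, 1 was higher and 1 lower in each case. In the 56 tested genes with no listed role 40 were higher and 9 lower, with a median of 1.33, and Ccdc89 was among them.

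Ccdc89 measured 3.89, 5.98, 2.43 and 4.60 in spermatogonia, 2.45, 4.47 and 4.69 in pre-leptotene, and 6.53, 6.83 and 8.71 in leptotene/zygotene cells on the log2 scale. It was 8.65 in early-pachytene, 10.64 and 10.33 in mid-pachytene, 11.99 in late-pachytene, 11.82 and 11.85 in diplotene cells and between 10.25 and 10.57 in the 4 round spermatid arrays. It rose by 6.04 ± 0.45 (limma adjusted p = 5.25e-09) and no late array overlapped an early one. This was the largest difference of any member with the probe sets used here. With the mean of a gene's probe sets it was 5.0, below the 5.80 of Cfap54, and with values floored at 5 it was below that of Cfap65. Ccdc13, a centriolar satellite gene, rose by 4.97 ± 0.26 and Ccdc116 by 3.89 ± 0.24. Ccdc88b, of the family of girdin, rose by 5.15 ± 0.29, from log2 signals of 2.81 to 4.22 in spermatogonia to 8.55 to 9.14 in round spermatids. Ccdc130, a splicing gene, rose by 3.29 ± 0.21 and Ccdc174 by 1.09 ± 0.20.

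The promoters of the rising genes were searched for sequences that known factors of ciliary and spermatocyte genes bind. RFX factors bind the X-box, part of which is GTTGCCA, MYB factors bind AACNGNC, and CREM binds TGACGTCA. Of the X-box only GTTGCCA was searched, so an X-box match here means this part and not a whole X-box. Both strands of the 300 bases from 250 before to 50 after each annotated start were read from RefSeq (GRCm38.p6), which holds 141 windows for 115 of the 144 members. GTTGCCA was found for 13 of 73 higher genes with a window (17.8%) and for 0 of 16 lower genes. The share was 5.02% of all 27025 genes and 5.34% of genes with a tested probe set. Among genes that followed the axonemal rise GTTGCCA was found for 11 of 52 (21.2%), and for the axonemal reference genes for 8 of 42 (19.0%). AACNGNC stood in 50.7% of the higher, 50% of the lower, 36.0% of all and 38.9% of tested genes. TGACGTCA stood in 2 of the 73 higher genes (2.74%), 1 of the 16 lower genes, 2.03% of all genes and 3.64% of tested genes. These shares are descriptions with no test, a match is not a binding site, and no match says only that these letters are not in the window. The 4 windows below are in the direction of transcription on GRCm38.p6 and were chosen after their values were seen. GTTGCCA, or its reverse complement TGGCAAC, is in capitals, and sequences close to it but not the same are not marked. Only windows with a match are shown. No match to GTTGCCA was found for Ccdc89, Cfap45, Cfap52, Cfap57, Cfap206, Ccdc88b, Cfap221 or Cfap70, each of which rose more late than the 4 genes shown. Cfap161, Cfap298 and Cfap300 are shown because, of axoneme genes with an X-box match, their windows held the most matches to the sequences searched. Ccdc13, which had a large rise, was added to them. The Cfap161 window holds 3 X-box matches, at 67, 60 and 40 bases before the start. The proteins of Cfap298 and Cfap300 help assemble dynein arms.
Cfap161 (chr7:83794790-83795089, minus strand): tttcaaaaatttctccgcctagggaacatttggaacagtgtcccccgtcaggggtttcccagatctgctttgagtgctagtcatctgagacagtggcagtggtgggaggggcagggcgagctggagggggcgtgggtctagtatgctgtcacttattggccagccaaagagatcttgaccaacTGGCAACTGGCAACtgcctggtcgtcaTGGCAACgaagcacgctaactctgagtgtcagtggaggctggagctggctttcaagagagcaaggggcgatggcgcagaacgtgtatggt
Cfap298 (chr16:90934800-90935099, minus strand): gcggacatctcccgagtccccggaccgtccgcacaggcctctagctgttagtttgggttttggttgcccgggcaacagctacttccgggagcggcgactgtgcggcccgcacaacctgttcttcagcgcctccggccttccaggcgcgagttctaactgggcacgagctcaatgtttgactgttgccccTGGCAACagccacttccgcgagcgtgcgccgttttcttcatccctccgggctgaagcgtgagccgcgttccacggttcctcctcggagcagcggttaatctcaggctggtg
Cfap300 (chr9:8042826-8043125, minus strand): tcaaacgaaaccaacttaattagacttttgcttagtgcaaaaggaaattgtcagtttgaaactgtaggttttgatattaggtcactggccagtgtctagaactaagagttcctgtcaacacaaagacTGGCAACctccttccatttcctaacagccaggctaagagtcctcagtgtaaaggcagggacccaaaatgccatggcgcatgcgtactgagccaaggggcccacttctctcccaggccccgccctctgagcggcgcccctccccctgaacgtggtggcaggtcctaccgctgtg
Ccdc13 (chr9:121839412-121839711, minus strand): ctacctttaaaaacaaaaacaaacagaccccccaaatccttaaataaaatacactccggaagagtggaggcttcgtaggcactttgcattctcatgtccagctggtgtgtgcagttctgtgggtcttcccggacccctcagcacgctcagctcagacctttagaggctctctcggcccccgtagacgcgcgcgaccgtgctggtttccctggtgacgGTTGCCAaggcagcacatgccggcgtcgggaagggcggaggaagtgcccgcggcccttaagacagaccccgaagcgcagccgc
Cfap161, whose protein lies inside the doublet microtubules, rose by 4.94 ± 0.42 late, Cfap298 by 2.94 ± 0.21 and Cfap300 by 2.06 ± 0.18. The match lay 61 bases before the start in Cfap298, 123 in Cfap300 and 33 in Ccdc13.

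RNA of the factors themselves was read in the same fit. Of 9 genes in that list 7 were measured and tested, 5 were higher late, 1 lower and 1 neither. Over all tested probe sets 34% were higher and 43.3% lower. Rfx4 rose by 5.53, Rfx2 by 4.29, Crem by 4.21, Mybl1 by 4.01 and Foxj1 by 2.18, all on the log2 scale. Rfx1 fell by 0.90 and Rfx3 differed by -0.08. From diplotene cells to round spermatids both rose, Rfx1 by 2.33 (limma adjusted p = 9.31e-05) and Rfx3 by 2.44 (limma adjusted p = 0.000148). Their highest means, 8.89 and 7.68, were in round spermatids. Mean log2 signal of Rfx2, an RFX factor of the germ line, was 7.14 in spermatogonia, 5.73 in pre-leptotene, 8.11 in leptotene/zygotene and 8.89 in early-pachytene cells. It reached 10.8 by mid-pachynema and stood at 11.4 in the spermatids. Foxj1, a master factor of motile cilia elsewhere, had its highest mean, 9.37, in round spermatids and was at 4.65 in leptotene/zygotene cells.

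Step by step, the rise began before pachynema. From pre-leptotene to leptotene/zygotene cells 22 of 127 genes rose (17.3%), against 1.86% of all tested probe sets, and all 22 were among the 91 higher late. None fell by limma, against 0.165% of all tested probe sets, and 1 fell at an unadjusted p of 0.05. With 1 probe set a gene, 2.51% of genes rose and 0.0837% fell. Of the 22 rising genes 12 were Cfap genes. Within the 2 projects that hold both fractions, 89 and 91 of the 127 tested members had a positive difference, beside 10500 and 10114 of the 22396 probe sets. Same-numbered arrays of these fractions deviated together, and with replicate number as a block 35 genes rose, as many as with array project as a block. The largest rises were those of Cfap65 (3.49 ± 0.59, limma adjusted p = 0.00983), Ccdc89 (3.49 ± 0.75, limma adjusted p = 0.03), Cfap52 (3.40 ± 0.56) and Cfap57 (3.35 ± 0.63). In Cfap57 the pre-leptotene arrays read 2.50, 5.18 and 4.39 and the leptotene/zygotene arrays 6.40, 7.09 and 8.63, so they did not overlap. This count rested on single arrays. With leptotene/zygotene replicate 3 left out it was 2, and with replicate 1 left out 34. Leaving out the pre-leptotene arrays gave 2 for replicate 1 and 4 for replicate 3. Round spermatid arrays bear on it through the shared spread, and it was 13 without replicate 2 and 14 without replicate 3 of that fraction, and 1 with none of its arrays.

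Between leptotene/zygotene and mid-pachytene cells 59 genes rose (46.5%), against 13.7% of all tested probe sets, and 6 fell (4.72%), against 15.3% (16.2% and 17.1% with 1 probe set a gene). All 59 were among the genes higher late and all 6 among those lower late. Both fractions of this step are also on opposite sides of the late against early comparison, so this overlap is no separate support. Of 24 Cfap genes 21 rose. In the 1 project with both fractions 100 of the 127 tested members had a positive difference, beside 10112 of the 22396 probe sets. The largest rises were in Cfap54 (3.38 ± 0.45, limma adjusted p = 0.000166), Cfap61 (3.29 ± 0.55), Cfap221 (3.23 ± 0.53) and Ccdc88b (3.21 ± 0.55). Cfap61 read 3.09, 4.37 and 5.77 in leptotene/zygotene cells, 6.57 in early-pachytene and 7.39 and 8.0 in mid-pachytene cells. The count of rises was 21 and that of falls 1 without mid-pachytene replicate 2. Falls numbered 3 when pre-leptotene replicate 1, leptotene/zygotene replicate 1 or 2, or round spermatid replicate 3 was left out. On the scale that puts the leptotene/zygotene mean at 0 and the mid-pachytene mean at 1, the single early-pachytene array lay at 0.692 for the 59 rising genes. On the same scale the leptotene/zygotene replicates read -0.27, -0.15 and 0.41, and those of mid-pachytene cells 0.96 and 1.04. The midpoint between the lowest mean before pachynema and the highest mean of a gene was also read, counting from the fraction of that lowest mean onward. Of the 91 higher genes 53 first passed it in the early-pachytene fraction, 20 in mid-pachytene, 8 in late-pachytene, 3 in diplotene cells and 7 in round spermatids.

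Fewer genes moved from mid-pachytene to diplotene cells, where 8 rose (6.30%), a share near the 6.56% of all tested probe sets. The 4 that fell were 3.15%, against 12.7% of all tested probe sets (7.11% and 15.3% rose and fell with 1 probe set a gene). The rises were led by Ccdc42os (2.56 ± 0.43), Ccdc88b (1.89 ± 0.60), Ccdc116 (1.66 ± 0.48) and Ccdc87 (1.57 ± 0.42). Ccdc42os fits the name rule and is, by its name, a transcript opposite to Ccdc42. The 4 falls were Ccdc6, Ccdc22, Ccdc85b and Ccdc120. Within the 2 projects that hold both fractions, 97 and 94 of the 127 tested members had a positive difference, beside 11619 and 10524 of the 22396 probe sets. With array project as a block 29 genes rose and 9 fell. Rises numbered 2 without mid-pachytene replicate 2 or diplotene replicate 1, 3 without mid-pachytene replicate 1 or diplotene replicate 2, and 15 without leptotene/zygotene replicate 3. Falls numbered 2 without mid-pachytene replicate 1 or diplotene replicate 2 and 7 without round spermatid replicate 4.

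**Figure D4:**
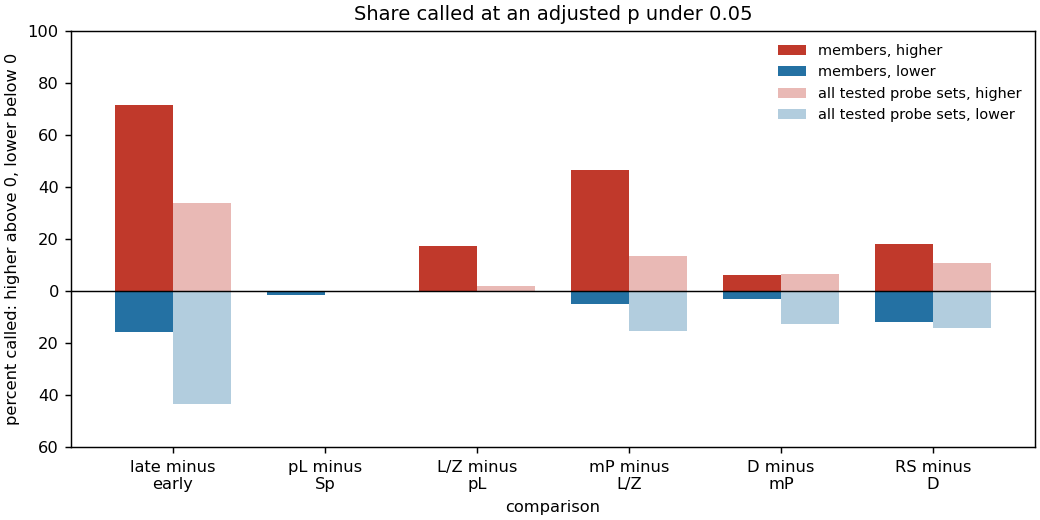
Percent of the 127 tested members (dark bars) and of all 22396 tested probe sets (pale bars) called higher (red, above 0) or lower (blue, below 0) in each comparison, at a limma adjusted p under 0.05. In percentage points, members exceed the background most in the late against early (71.7% and 34%) and mid-pachytene against leptotene/zygotene (46.5% and 13.7%) rises, and as a ratio in the leptotene/zygotene against pre-leptotene rise (17.3% and 1.86%).

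From diplotene cells to round spermatids 23 genes rose (18.1%), against 10.9% of all tested probe sets, and 15 fell (11.8%), against 14.2% (13.5% and 14.2% with 1 probe set a gene). In the 2 projects with both fractions 67 and 82 of the 127 tested members had a positive difference, beside 9579 and 11067 of the 22396 probe sets. Rises numbered 13 without diplotene replicate 1 and 14 without replicate 2, and falls 6 without diplotene replicate 1. Of the axoneme list Ccdc63 and Cfap97d1 were among the rises and none among the falls (1 at an unadjusted p of 0.05 in limma). Ccdc182 rose most, by 3.69 ± 0.56 (limma adjusted p = 0.000255). Its log2 signal was between 1.97 and 2.10 in the 10 arrays before pachynema, 5.94 in early-pachytene, 2.09 and 3.44 in mid-pachytene, 2.15 in late-pachytene, 3.32 and 5.48 in diplotene cells, and 8.03, 8.70, 8.80 and 6.81 in round spermatids. The early-pachytene array stood above those of the leptotene/zygotene and mid-pachytene fractions. Summed spermatid markers were 75207 there, 75422 to 80255 in mid-pachytene and 19445 in late-pachytene cells. The next rises were Ccdc169 (3.26 ± 0.48), Ccdc183 (3.10 ± 0.45) and Ccdc159 (3.05 ± 0.58). Ccdc169 and Ccdc183 stayed under a log2 signal of 5 on every array up to late-pachynema, and each passed it on 1 diplotene array and on all 4 round spermatid arrays.

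Other genes fell from diplotene cells to round spermatids, some of them after a crest in late prophase. Of the 15 genes that fell at this step 10 were higher late, 4 lower late and 1 neither. Ccdc47, an endoplasmic reticulum gene, read 10.65, 11.25 and 10.75 in leptotene/zygotene, 12.15 and 13.49 in mid-pachytene, 12.20 in late-pachytene, 12.25 and 13.20 in diplotene cells and 10.44, 10.30, 10.65 and 10.51 in round spermatids. It rose by 1.94 ± 0.38 into mid-pachytene (limma adjusted p = 0.00184) and fell by 2.25 ± 0.36 into round spermatids (limma adjusted p = 0.000383). Its probe set may match related transcripts. A probe set of Ccdc47 without that mark had a late minus early difference of -1.22, so the direction of this gene is uncertain. Ccdc82 read 8.70 and 8.54 in diplotene cells and 6.57, 6.77, 7.15 and 5.64 in round spermatids, and it fell by 2.09 ± 0.52. Ccdc77, a centrosomal gene, fell by 1.95 ± 0.29 and Ccdc112 by 2.04 ± 0.29, from diplotene means of 10.5 and 9.03. Ccdc61, a centriole gene, read 8.29 and 7.14 in diplotene cells and 6.48, 5.68, 5.09 and 4.67 in round spermatids, and it fell by 2.24 ± 0.42. Ccdc115, which serves assembly of the proton pump of acidic organelles, fell by 2.48 ± 0.42. Its highest mean, 9.53, was in spermatogonia, and its diplotene mean was 7.79. Both Ccdc61 and Ccdc115 were among the 4 lower late.

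Genes high before pachynema were few and of mixed roles. Ccdc22, part of an endosomal recycling complex, lies on chromosome X and fell most, by 4.07 ± 0.23 late (limma adjusted p = 3.47e-10). It read 8.28, 7.28, 7.90 and 7.15 in spermatogonia, 8.40, 7.51 and 7.88 in pre-leptotene and 8.29, 7.40 and 7.17 in leptotene/zygotene cells. It was 5.99 in early-pachytene, 6.10 and 4.83 in mid-pachytene, 3.10 in late-pachytene, 3.02 and 2.89 in diplotene cells and 3.11, 2.99, 3.19 and 3.22 in round spermatids. Early and late arrays did not overlap, and the levels from late-pachynema on were under 5. Its probe set carries a mark for possible matches to other transcripts. Ccdc93, of the same complex and on chromosome 1, fell by 1.10 ± 0.21 late but rose by 2.08 ± 0.38 from diplotene cells to round spermatids. Ccdc120, a centriole gene on chromosome X, fell by 3.01 ± 0.21. Its lowest early array read 5.08 and its highest late array 4.52. Ccdc160, the other tested X-linked member, was higher late by 0.73 ± 0.22 (limma adjusted p = 0.00648), with round spermatid signals of 6.78, 6.09, 7.0 and 5.35 against 4.29 to 4.89 in the early fractions. Most of its other late arrays lay close to 5, and its call was lost when values under 5 were raised to 5 (limma adjusted p = 0.0583), with array project as a block (limma adjusted p = 0.237) and without round spermatids (limma adjusted p = 0.0567). Silencing of X-linked genes in pachytene spermatocytes is a known feature of male meiosis. Cfap47, also X-linked, did not pass the filter.

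The autosomal falls included Ccdc85b, a centrosome and junction gene that fell by 3.57 ± 0.21. It read 7.85, 6.86 and 7.33 in leptotene/zygotene, 7.40 in early-pachytene, 6.04 and 5.15 in mid-pachytene, 3.73 in late-pachytene cells and between 2.77 and 3.68 in round spermatids. The early-pachytene array therefore lay among the leptotene/zygotene arrays. Ccdc6, known as a fusion partner of the Ret kinase in thyroid cancer, fell by 3.26 ± 0.26. Its arrays read 9.10 and 8.70 in mid-pachytene, 5.77 in late-pachytene, 4.27 and 5.62 in diplotene cells and 6.29, 7.27, 7.23 and 6.01 in round spermatids. From mid-pachytene to diplotene it fell by 3.96 ± 0.52 (limma adjusted p = 0.000132) and into round spermatids it rose by 1.76 ± 0.45 (limma adjusted p = 0.00913). Smaller late differences were those of Ccdc59, a nuclear gene (-1.76 ± 0.29), Ccdc71l (-1.73 ± 0.25), Ccdc115 (-1.68 ± 0.24), the mitochondrial gene Ccdc90b (-1.52 ± 0.20), the splicing gene Ccdc84 (-1.5 ± 0.19) and Ccdc141 (-1.19 ± 0.34), all past the limma threshold with all arrays. For Ccdc141 the difference was -0.32 with values floored at 5 (limma adjusted p = 0.13) and -0.92 without round spermatids (limma adjusted p = 0.0761), so its call was lost. For 11 of the 20 lower genes every late fraction mean stayed at or above 5, so they were still measured in late cells.

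**Figure D5:**
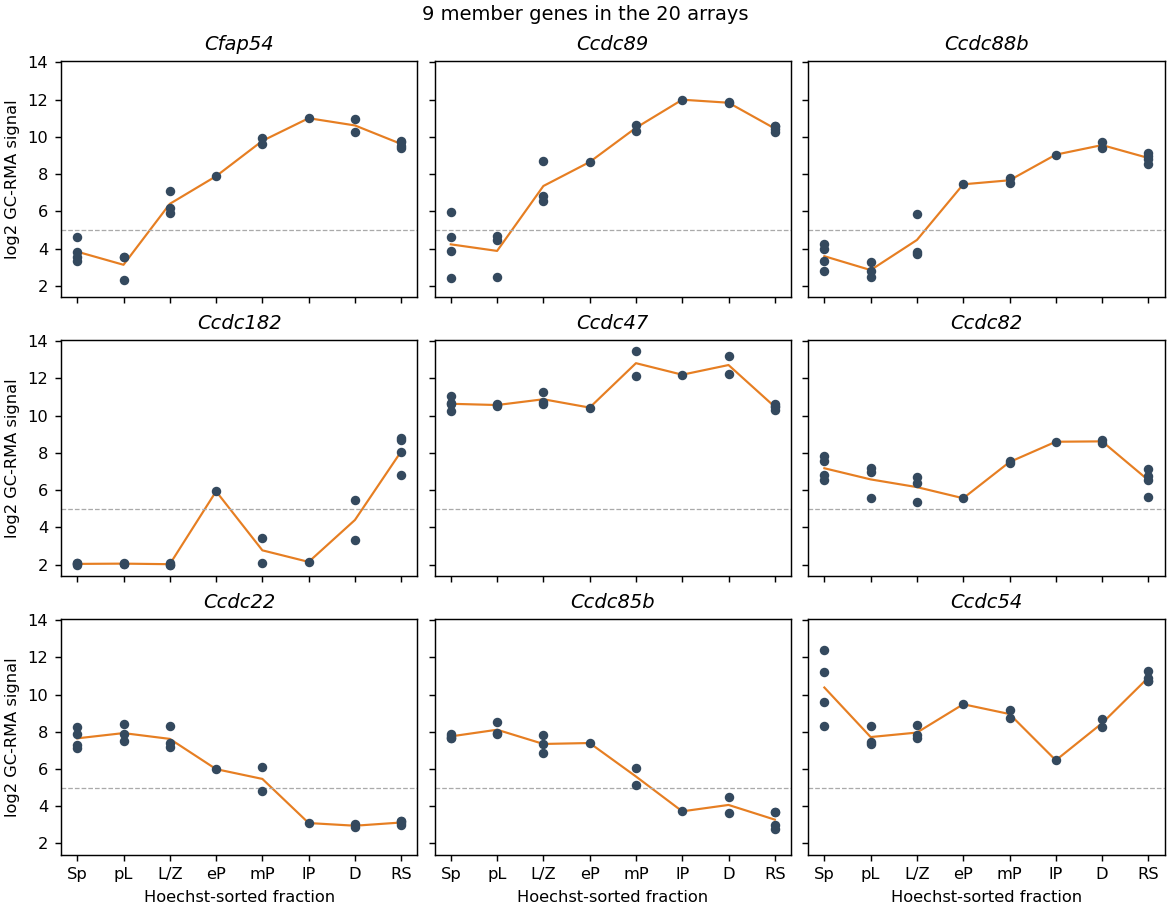
Log2 GC-RMA signal (vertical axis) of 9 members on the 20 arrays by sorted fraction (horizontal axis). Points are arrays, the line joins fraction means, and the dashed line marks 5. Cfap54, Ccdc89 and Ccdc88b rise through prophase, and Ccdc182 is highest in round spermatids. Ccdc47 crests from mid-pachytene to diplotene cells and Ccdc82 in late-pachytene and diplotene cells. Ccdc22 and Ccdc85b fall. Ccdc54 is high in spermatogonia (summed spermatid markers 62032 to 311728) and in round spermatids (141097 to 205523).

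At the first step, from spermatogonia to pre-leptotene cells, 0 genes rose by limma (0 at an unadjusted p of 0.05), against 0.0714% of all tested probe sets. Ccdc70 fell by 2.95 ± 0.61 (limma adjusted p = 0.0488) and Cfap97d1, which maintains the sperm axoneme, by 2.84 ± 0.60 (limma adjusted p = 0.049). These 2 genes were 1.57% of the tested members, against 0.415% of all tested probe sets, and 23 fell at an unadjusted p of 0.05. With 1 probe set a gene, 0.0502% of genes rose and 0.636% fell. No gene fell by limma when any single array was left out, except pre-leptotene replicate 2 (1 gene), spermatogonia replicate 3 (5 genes), spermatogonia replicate 4 (11 genes) and the late-pachytene array (2 genes). Same-numbered arrays of these fractions deviated together, and with replicate number as a block 12 genes fell and with array project as a block 16. In the 3 projects with both fractions 91, 83 and 85 of the 127 tested members had a negative difference, beside 9856, 9537 and 10384 of the 22396 probe sets. Ccdc70 read 8.41, 10.03, 7.23 and 6.47 in spermatogonia, 4.76, 6.07 and 4.44 in pre-leptotene cells and 10.60, 10.07, 10.15 and 9.93 in round spermatids. All 24 Cfap genes had a lower mean in pre-leptotene cells than in spermatogonia, with a median difference of -0.85, 1 of them passing. The 4 spermatogonia arrays that held these levels are those in which summed spermatid markers reached 62032 to 311728. With all 4 left out, 93 genes were higher and 19 lower late, 90 and 18 of them shared with the counts over all arrays.

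The 16 genes that passed in neither direction were of more than 1 kind. Ccdc12, a spliceosome gene, read between 10.01 and 11.05 on all 20 arrays and differed by -0.01 ± 0.14 between late and early fractions. Ccdc54, a testis gene, differed by 0.02 ± 0.42, although its arrays read 11.21, 12.39, 9.62 and 8.29 in spermatogonia, 6.47 in late-pachytene cells and 11.29, 10.75, 10.92 and 10.71 in round spermatids. Summed spermatid markers were 62032 to 311728 in these spermatogonia, 19445 in late-pachytene cells and 141097 to 205523 in round spermatids, and their part in the Ccdc54 values was not tested. Without the spermatogonia its late difference was 0.86 (limma adjusted p = 0.00275). Ccdc71 differed by -0.23 ± 0.22, but was lower by limma with replicate number as a block (-0.33, adjusted p = 0.0362) and with array project as a block (-0.39, adjusted p = 0.0439).

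Of 39 members with at least 2 tested probe sets, 3 had calls in opposite directions, Ccdc47, Ccdc134 and Ccdc166. Ccdc134, a secreted protein gene, was higher by 1.2 ± 0.16 with the probe set used, and another of its probe sets differed by -1.03. Without the filter on low signal 94 of 144 genes were higher and 17 lower, beside 10253 higher and 10159 lower of all 45037 probe sets.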

How the data were processed

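RNA of the sorted fractions was measured on 20 MOE430 version 2 arrays. The deposited values are linear GC-RMA signal intensity per probe set, made by the authors in GeneSpring GX, and log2 was taken of these deposited intensity values here. No depth applies to arrays, and the number of arrays limits the precision. The table held 45037 probe sets, and probe sets without a single gene symbol were not named. Groups came from the sample labels.

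Log2 values were fitted in limma 3.58.1 (R 4.3.3) with 8 fraction means, with 12 residual and 3.69 prior degrees of freedom. P-values were 2-sided and adjusted by Benjamini-Hochberg over 22396 probe sets with a threshold of 0.05. The other steps used Python 3.11.15, pandas 2.3.3 and numpy 2.4.6, and the code was tested on simulated data. Members and gene lists were chosen with earlier results of these data known. Genes named by rule were the 10 largest rises and falls late, the 4 largest at each step, X-linked members, the 2 largest in each direction of each role and the 3 least changed with a mean log2 of at least 7. Other genes were named for their role after their values were seen. Where arrays of a fraction were not said to come from separate mice, p-values measure only the spread between pools.

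Whether replicate numbers pair arrays was checked on deviations from the fraction means. Same-numbered spermatogonia and pre-leptotene arrays correlated at 0.60, 0.55 and 0.20, and pre-leptotene and leptotene/zygotene arrays at 0.62, 0.31 and 0.44, so the numbers were taken to pair arrays at these steps, from the data and not from the labels. Number and array project overlap here, as the pairs at 0.60 and 0.55 also share a project. Spermatogonia replicate 4 and pre-leptotene replicate 3, of the same project but different numbers, correlated at 0.44. The same-numbered pair at 0.20 is of different projects.

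Alternatives were other filters, a floor, median centring, quantile normalization, other choices of probe set, robust moderation, blocks for replicate number and for the array project, and leaving out arrays. Leaving out all spermatogonia, all round spermatids or the late-pachytene array was chosen after seeing the data. Array projects were read by matching signals to headings of the study's own table.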

Additional observations from a re-analysis of the deposited data

Results flagged for a closer look

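Among 90 sets of 4 spermatogonia or round spermatid arrays, of named genes and of the means over member sets, 2 (2.22%) held an array far from the other 3, where chance alone gives about 1 in 20. In Ccdc87 round spermatid replicate 1 had a log2 signal of 8.93, above the other 3 arrays at 8.60 to 8.63. In Ccdc13 round spermatid replicate 2 was at 10.98, below the other 3 at 11.12 to 11.13.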

How the results depend on the processing

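The late against early counts stayed between 82 and 95 higher and between 15 and 23 lower over all alternatives, and the counts at single steps moved more. Genes lower in pre-leptotene cells than in spermatogonia, 2 by limma over all arrays, numbered 0 without the filter, with values floored at 5, with median centring, with quantile normalization and without round spermatids, 12 with the replicate block and 16 with the project block. Rises into leptotene/zygotene cells, 22, numbered 4 without the filter, 35 with the replicate block, 35 with the project block and 1 without round spermatids. Falls into mid-pachytene cells, 6, numbered 11 with the project block. Rises into diplotene cells, 8, numbered 17 with the floor, 15 with the mean of probe sets, 17 with the replicate block and 29 with the project block, and falls, 4, numbered 7 with the replicate block, 9 with the project block and 7 without round spermatids. The cause was not tested.

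Leaving out 1 array at a time gave 0 to 11 falls into pre-leptotene cells, 2 to 34 rises into leptotene/zygotene cells, 21 to 61 rises and 1 to 7 falls into mid-pachytene cells, 2 to 15 rises and 2 to 7 falls into diplotene cells, and 13 to 24 rises and 6 to 15 falls into round spermatids. Over the 37 same-numbered pairs of all fractions, deviations correlated at -0.17 to 0.70 (median 0.33), and at the spermatogonia to pre-leptotene and pre-leptotene to leptotene/zygotene steps each pair was above 0.1. At the other comparisons the samples share only a number or have fewer than 3 pairs. The replicate block leaves out the early-pachytene and late-pachytene arrays, whose labels carry no number. Arrays of 1 project correlated at 0.12 to 0.70 over 21 pairs.

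The late difference of Ccdc47 was -1.22 with its probe set without a suffix. That of Ccdc12 was 0.13 with the mean of probe sets, 0.27 with its probe set without a suffix and 0.080 without round spermatids, and -0.14 to 0.048 with 1 array left out. That of Ccdc54 was -0.11 with the project block and -0.72 without round spermatids, and -0.22 to 0.76 with 1 array left out. Of 1331 values of 43 genes under 31 settings, 1294 kept direction and side of the threshold. Late calls were lost without round spermatids for Ccdc70, Cfap97d1, Ccdc159, Ccdc61, Ccdc127, Ccdc141 and Ccdc160, with quantile normalization for Ccdc126 and with the mean of probe sets for Ccdc47 and Ccdc134. Quantile normalization moved the median of all probe sets from -0.25 to -0.06 and that of the members from 1.62 to 1.74. Signals under a log2 of 5 are close to background and limit folds of genes that start there.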
